A study of Mus musculus with 14 samples.

Results

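Border and perivascular macrophage markers were examined in cultured primary microglia from TIMP2 KO and WT mice. These are 10 genes chosen by symbol: Mrc1, Cd163, Lyve1, F13a1, Pf4, Cbr2, Stab1, Ms4a7, Cd209f and Folr2. All 10 had a row among the 49315 genes of the count table, and 9 of them were among the 15700 genes that passed the filter on low counts. Lyve1 did not pass. The study holds 14 libraries of messenger RNA, 7 KO and 7 WT, all from pups labelled C57BL/6 (C57Bl/6J in the study's methods) at P6-P7. KO pups carried a deletion of Timp2 in every cell, and WT pups carried none. Each library stands for a pool of 5 pups, male and female together, whose forebrain cells were selected with beads against CD11b, a surface protein that microglia share with other macrophages and monocytes, and then kept in serum-containing culture. No library therefore describes a single animal, and no gate on the markers below was applied.

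Border macrophages live in the meninges, around brain vessels and in the choroid plexus, while microglia live among the neurons. Both depend on the receptor Csf1r, and both descend largely from embryonic precursors. Border macrophages are known for scavenger and lectin receptors that take up sugars, hemoglobin complexes, modified lipoproteins and debris from fluid. Several of the 10 genes are not exclusive to them: Pf4 is a product of platelets and their precursors, Stab1 and Lyve1 are made by sinusoidal and lymphatic endothelium, and Mrc1, Pf4, F13a1 and Ms4a7 are also known from embryonic microglia. In bulk cultures, fewer cells of a type and less RNA per cell cannot be told apart.

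Between 38875344 and 48070236 counted reads were available per library, and levels are given as CPM, the count of a gene scaled to 1000000 counts of its library. Timp2, the deleted gene, was lower in every KO library (119–129 CPM) than in any WT library (397–495 CPM), a log2 fold change of -1.92 ± 0.05 (SE, edgeR adjusted p = 1.53e-12). Csf1r, on which microglia and border macrophages both depend, stood at 463 CPM per kilobase of exon. Of the genes used to mark microglia, Cx3cr1 stood at 223 CPM per kilobase, whereas P2ry12 (16.3), Sall1 (17.1) and Tmem119 (1.96) were low. The summed level of 9 astrocyte genes differed widely between libraries, from 32.1 to 156 CPM in KO and from 37.5 to 302 CPM in WT.

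The promoters of Mrc1, Stab1, Pf4 and Cd209f are shown first, and those of the other members are not printed. Of the pairs found to vary together below, only Mrc1 with Pf4 has both stretches printed. Sequences and start sites are from RefSeq (GRCm38.p6), with entries for 9 of the 10 members, and bases inside the GENCODE gene are left out. Capitals mark matches to GAGGAA (a PU.1 core, the macrophage lineage factor), TGCTGA (the core of a MAF site) and TGACTCA or TGAGTCA (AP-1), read on both strands, so that TTCCTC is GAGGAA on the other strand. Mrc1 lies on the plus strand (chr2:14229164-14229391), Stab1 on the minus strand (chr14:31168642-31168891), Pf4 on the plus strand (chr5:90772185-90772434) and Cd209f on the minus strand (chr8:4105836-4106014).
Mrc1: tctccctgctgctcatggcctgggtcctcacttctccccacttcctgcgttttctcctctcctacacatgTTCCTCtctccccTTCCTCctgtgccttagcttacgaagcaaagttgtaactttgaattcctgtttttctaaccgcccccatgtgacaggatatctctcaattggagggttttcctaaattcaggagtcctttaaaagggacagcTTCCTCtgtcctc
Stab1: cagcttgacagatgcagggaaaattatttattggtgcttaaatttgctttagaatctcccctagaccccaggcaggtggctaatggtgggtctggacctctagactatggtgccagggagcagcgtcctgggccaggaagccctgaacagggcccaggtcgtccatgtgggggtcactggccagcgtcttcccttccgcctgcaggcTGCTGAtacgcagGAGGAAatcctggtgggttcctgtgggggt
Pf4: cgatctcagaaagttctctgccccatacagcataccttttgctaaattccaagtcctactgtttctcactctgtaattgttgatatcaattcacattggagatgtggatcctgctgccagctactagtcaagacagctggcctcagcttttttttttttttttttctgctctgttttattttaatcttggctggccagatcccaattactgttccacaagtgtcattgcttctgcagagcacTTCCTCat
Cd209f: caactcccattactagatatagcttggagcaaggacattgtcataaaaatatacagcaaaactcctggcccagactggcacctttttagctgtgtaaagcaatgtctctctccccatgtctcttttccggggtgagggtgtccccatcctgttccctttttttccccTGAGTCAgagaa

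The Mrc1 stretch held 3 matches to GAGGAA, and those of Stab1 and Pf4 held 1 each. Cd163 and Ms4a7, whose stretches are not printed, held no match to any of the marked motifs in the 250 bases before the start. In windows of 300 bases (250 before and 50 after the start), GAGGAA was present for 6 of 9 members and in 7 of their 12 windows, against 28.3% of all 32851 windows in the table. TGCTGA was present for 3 members, in 4 of 12 windows, against 19.5% of all windows. The AP-1 letters TGACTCA or TGAGTCA were present for 2 members, Cd209f and Folr2, against 5.2% of windows. CACGTG, an E-box, was in none of the members' windows and in 7.15% of all windows. No 2 of these motifs overlapped in the printed stretches.

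The 10 genes differed widely in level. Per kilobase of exon, Stab1 was highest at 314 ± 40 CPM (SD, n = 14), followed by Mrc1 at 68.7 ± 17.8 CPM per kilobase. Ms4a7 (31.1), Pf4 (27.7) and Folr2 (19.8 CPM per kilobase) formed the next group, F13a1 stood at 1.59 CPM per kilobase, and Cbr2 (0.541), Cd209f (0.306), Cd163 (0.109) and Lyve1 (0.0144 CPM per kilobase) were lowest. In the order of per-length levels of all 15700 tested genes, Stab1 ranked 101, Mrc1 600 and Folr2 2362, whereas Cbr2 ranked 11952 and Cd163 14780. Stab1 thus stood above Cx3cr1 and below Csf1r, and Mrc1 above P2ry12 and Sall1, on the same per-length scale.

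Most neighbours in this order were separated in every library. Stab1 exceeded Mrc1 in 14 of 14 libraries, by 4.57-fold in the means, and the ranges did not overlap. The Folr2 range also lay wholly above that of F13a1, with a 12.4-fold ratio of the means. Ms4a7 exceeded Pf4 in only 8 of 14 libraries, so the order of these neighbours was not separated from the spread. Cd209f exceeded Cd163 in 13 of 14 libraries.

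**Figure D1:**
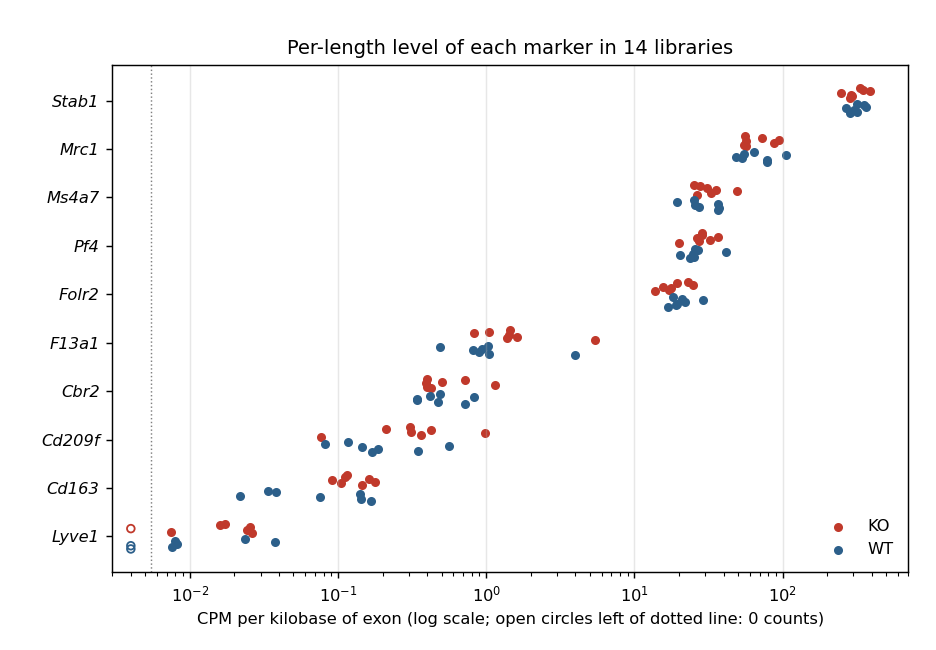
Level of each of the 10 markers in CPM per kilobase of exon (log scale), 1 point per library, KO in red and WT in blue, with libraries at 0 counts as open circles. Stab1 lies near 314 and Lyve1 near 0.0144, and the KO and WT points of each marker cover overlapping ranges.

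The members took 0.387% of all counts on average (0.304 to 0.471% across libraries), and Stab1 alone took 0.323%. Without Stab1 the other 9 genes took 0.0639%. The 4 lowest genes, Cd163, Cd209f, Cbr2 and Lyve1, together took 0.000196%, a sum of 1.6–4.5 CPM in KO and 0.891–3.08 CPM in WT. By comparison, 15 homeostatic microglia genes took 0.878% of counts, and per kilobase the members summed to 15.6% of that list. The per-length sum of the 4 lowest members was 0.0328% of the homeostatic sum.

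Stab1, Mrc1 and Cd163 encode scavenger receptors: Stab1 (stabilin-1) takes up modified lipoproteins and the matrix protein SPARC, Mrc1 (CD206) binds mannose-bearing glycoproteins and collagen, and Cd163 clears hemoglobin bound to haptoglobin. Stab1 ranged from 2535 through a median of 3017 to 3967 CPM in KO, and from 2769 through 3261 to 3775 CPM in WT. The highest library of each genotype was replicate 5, the lowest was replicate 4, and the genotypes overlapped. Its log2 fold change was -0.02 ± 0.09 (SE, 95% interval -0.22 to 0.18, edgeR adjusted p = 0.986). Stab1 shares exon sequence with Nt5dc2 on the opposite strand, whose counts came to 1.0% of those of Stab1, and whether counting used strand is not given in the sources used here.

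Mrc1 ranged from 347 through a median of 362 to 601 CPM in KO and from 308 through 409 to 674 CPM in WT. KO replicate 5, KO replicate 3 (561 CPM) and WT replicate 5 were highest, and all the others lay between 308 and 503 CPM. The means were 435 ± 107 CPM in KO and 440 ± 128 CPM in WT (SD, n = 7 each). The log2 fold change of Mrc1 was -0.01 ± 0.18 (SE, 95% interval -0.40 to 0.37, edgeR adjusted p = 0.992).

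Cd163 was counted 5 to 43 times per library. It ranged from 0.498 through 0.631 to 0.968 CPM in KO and from 0.12 through 0.412 to 0.911 CPM in WT. The 3 lowest libraries were WT replicates 4, 6 and 7, while the upper ends of the genotypes were alike. The log2 fold change of 0.54 ± 0.38 (SE) had a 95% interval from -0.28 to 1.36, an edgeR adjusted p of 0.943 and a two-sided exact permutation p of 0.0962.

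Lyve1 and Cd209f encode receptors for sugars: Lyve1 binds hyaluronan, and Cd209f belongs to the mouse DC-SIGN family of C-type lectins. Lyve1 had 25 counts in all 14 libraries, 0 to 5 per library. It was at 0 in KO replicate 4 and in WT replicates 1 and 3, which allows up to 0.0697, 0.0634 and 0.0624 CPM there (3 counts, counting error only). Its spread was close to counting noise, with a chi-square of 1.25 per degree of freedom where 1 is expected. Tested without the filter on low counts, its log2 fold change was 0.42 ± 0.68 (SE, edgeR adjusted p = 0.884, exact permutation p = 0.348).

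Cd209f ranged from 0.153 through 0.617 to 1.96 CPM in KO and from 0.162 through 0.339 to 1.12 CPM in WT, on 6 to 83 counts per library. KO replicate 3 and WT replicate 5 were highest, and the lowest libraries of both genotypes were near 0.16 CPM. The log2 fold change was 0.73 ± 0.49 (SE, 95% interval -0.31 to 1.77, edgeR adjusted p = 0.943, exact permutation p = 0.235), and it was 0.29 without KO replicate 3 and 1.12 without WT replicate 5. Other genes of this family were nearly uncounted: Cd209a had 3 counts in all libraries together, Cd209b 6 and Cd209d 1, and Cd209g had 105. Genes of this family may be alike in sequence, and the split of reads between them was not tested.

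Ms4a7 encodes a membrane protein of macrophages, and Folr2 the folate receptor beta. Ms4a7 ranged from 112 through 137 to 218 CPM in KO and from 86.4 through 122 to 165 CPM in WT. KO replicate 3 was highest and WT replicate 6 lowest. Its log2 fold change was 0.13 ± 0.17 (SE, 95% interval -0.23 to 0.48, edgeR adjusted p = 0.945), and -0.002 without KO replicate 3.

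Folr2 ranged from 21.3 through 27.4 to 38.3 CPM in KO and from 26.1 through 30.2 to 45.2 CPM in WT. KO replicate 1 was lowest and WT replicate 5 highest. The log2 fold change was -0.15 ± 0.14 (SE, 95% interval -0.45 to 0.14, edgeR adjusted p = 0.943). It was -0.05 without WT replicate 5, -0.23 without KO replicate 5, and -0.24 with the homeostatic microglia level as a covariate. An antisense gene, Gm10602, shares exon sequence with Folr2, and its counts came to 11.9% of those of Folr2.

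Pf4 and F13a1 encode secreted proteins, the chemokine platelet factor 4 and the A chain of coagulation factor XIII, a transglutaminase that cross-links fibrin. Pf4 ranged from 14.3 through 20.5 to 26.4 CPM in KO and from 14.7 through 18.3 to 30.1 CPM in WT. Replicate 5 was highest in both genotypes, and the ranges overlapped. Its log2 fold change was 0.08 ± 0.15 (SE, 95% interval -0.23 to 0.40, edgeR adjusted p = 0.961), and it was 0.01 without KO replicate 5 and 0.22 without WT replicate 5. Of the platelet genes in the same libraries, Treml1 had 1960 counts in all (3.23 CPM on average), Gp1ba 1323 (2.18 CPM) and Itga2b 303 (0.5 CPM), while Gp5 had 6 and Gp6 3, and Ppbp did not exceed 0.198 CPM.

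Among the members with a mean count of at least 100, F13a1 was the most uneven, with an 11.1-fold ratio of the highest to the lowest library. The ratio of Cd209f, on fewer counts, was 12.8-fold. F13a1 ranged from 5.6 through 9.63 to 36.4 CPM in KO and from 3.27 through 6.28 to 26.7 CPM in WT. Replicate 1 was the highest library in both genotypes, and all the others lay between 3.27 and 10.9 CPM. The log2 fold change was 0.52 ± 0.48 (SE, 95% interval -0.51 to 1.55, edgeR adjusted p = 0.943, exact permutation p = 0.282). It was -0.02 without KO replicate 1, 1.12 without WT replicate 1 and 0.58 without both. With the replicate number added to the fit, F13a1 passed in DESeq2 (adjusted p = 0.0452) but not in edgeR (adjusted p = 0.611). Same-numbered KO and WT libraries had correlations over 0.1 in only 3 of 7 pairs. The labels name no batch, so whether libraries numbered 1 were handled together was not tested.

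Cbr2, a carbonyl reductase, ranged from 0.522 through 0.561 to 1.51 CPM in KO and from 0.453 through 0.623 to 1.1 CPM in WT, on 19 to 64 counts. KO replicate 3 and WT replicate 5 were highest, and the genotypes overlapped. The log2 fold change was 0.14 ± 0.29 (SE, 95% interval -0.47 to 0.75, edgeR adjusted p = 0.968), and -0.13 without KO replicate 3. Cbr2 lies on the chromosome of the deleted gene, 2.37 Mb from Timp2 (GRCm38, chromosome 11).

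**Figure D2:**
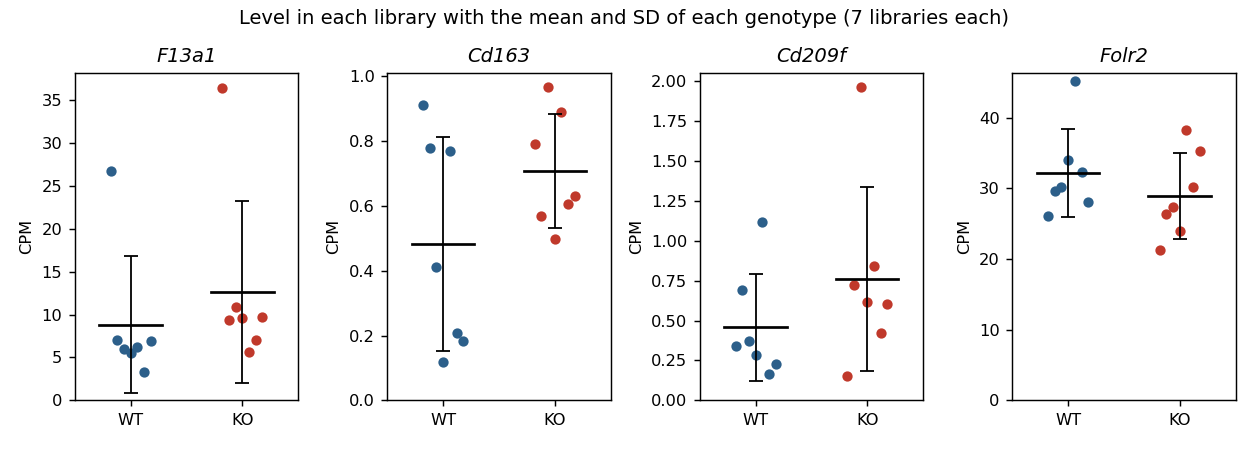
F13a1, Cd163, Cd209f and Folr2 in CPM, 1 point per library, with the mean (long bar) and SD (whiskers) of 7 libraries per genotype. The highest F13a1 points, 36.4 in KO and 26.7 in WT, are both replicate 1, and KO and WT overlap in all 4 panels.

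None of the 9 tested members passed the threshold (edgeR adjusted p under 0.05) in either direction, against 0.0191% of all tested genes, and none reached an unadjusted p under 0.05, against 3.37%. DESeq2 with the same genotype term called 0 members as well, against 0.104% of genes, and 0 at its unadjusted p under 0.05, against 3.6%. The 3 genes that edgeR called were Timp2, Engase and Gm11748, of which the last 2 were named after their values were seen. KO and WT ranges overlapped for each of the 10 members, while 0.0828% of all tested genes did not overlap. Of the 9, 6 had a positive log2 fold change, against 50.8% of all tested genes, and the median was 0.13 over the 9 and 0.00 over all.

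**Figure D3:**
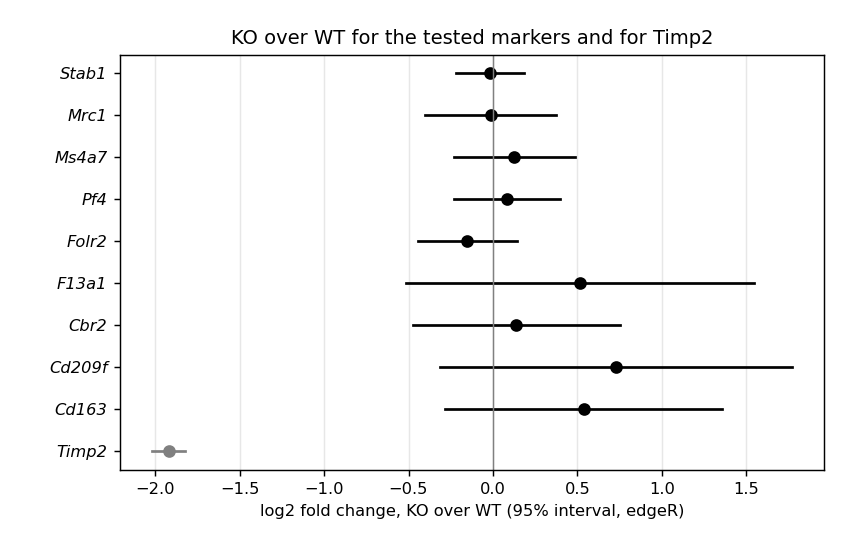
Log2 fold change of KO over WT with its 95% interval from edgeR for the 9 tested members (black) and Timp2 (grey). All 9 member intervals include 0, and the narrowest, for Stab1, runs from -0.22 to 0.18.

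Summed over the 10 genes, the level was 3842 ± 540 CPM in KO and 3901 ± 448 CPM in WT (SD, n = 7 each). The KO minus WT difference of the log2 sums was -0.03, against a pooled SD of 0.18 within genotype, and it was -0.08 without KO replicate 5 and 0.03 without KO replicate 4. Stab1 makes up most of this sum, and the difference was 0.27 when the median log2 CPM of the members was used in its place. Without Stab1, the sums were 641 ± 128 CPM in KO and 636 ± 162 CPM in WT, and without Stab1 and Mrc1 they were 208 ± 35 and 195 ± 39 CPM. The differences between these sums were smaller than the spread between libraries.

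Whether the genes varied together was examined next, within genotype. Log2 CPM was centred on its genotype mean, and all 36 pairs of the 9 members with a mean count of at least 10 were compared over 14 libraries. The correlation was positive for 30 of 36 pairs, with a median r of 0.46, while pairs of all tested genes were positive and negative about equally often (49.99% positive). An r above 0.7 was reached by 6 pairs, or 16.7%, against 2.39% of pairs over all tested genes. The same 6 pairs passed an adjusted permutation p of 0.05 over the 36, and 15 pairs had an unadjusted p under 0.05. By Spearman's rho 4 pairs passed the adjustment: Mrc1 with Cbr2, Ms4a7 with Cd209f, Pf4 with Folr2, and Pf4 with Stab1 (rho 0.74). By rho, Mrc1 with Cd163, Mrc1 with Pf4 and Stab1 with Folr2 did not pass it. The p beside each rho of a pair is unadjusted.

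Mrc1 took part in 3 of the 6 pairs. With Cbr2 its r was 0.81 (permutation p = 0.00127, adjusted p = 0.0187) and Spearman's rho 0.85 (p = 0.00036), and r was 0.91 without KO and WT replicate 5, the libraries farthest from the Mrc1 median. With Cd163 the r was 0.73 (permutation p = 0.0057, adjusted p = 0.0355), rho 0.69 (p = 0.02) and r without the same libraries 0.71. With Pf4 the r of 0.73 (permutation p = 0.00357, adjusted p = 0.0321) went with a rho of 0.53 (p = 0.0601) and fell to 0.40 without both of them, while leaving out any single library kept it at 0.57 or more.

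The other 3 pairs joined Ms4a7 with Cd209f, and Folr2 with Pf4 and Stab1. For Ms4a7 and Cd209f, r was 0.80 (permutation p = 0.00147, adjusted p = 0.0187), rho was 0.79 (p = 0.00141), and r was 0.64 without KO replicate 3 and WT replicate 6. The r of Pf4 and Folr2 was 0.81 (permutation p = 0.00156, adjusted p = 0.0187) and rho 0.75 (p = 0.0035), and r was 0.51 without KO replicate 1 and WT replicate 5. Stab1 and Folr2 had an r of 0.73 (permutation p = 0.00592, adjusted p = 0.0355), a rho of 0.68 (p = 0.0131) and an r of 0.63 without KO replicates 4 and 5. Leaving out any single library kept r of these 6 pairs between 0.57 and 0.91, but the number of passing pairs was 2 without KO replicate 3, KO replicate 5 or WT replicate 5, and 12 without KO replicate 4.

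F13a1 took part in none of the passing pairs. Its r with the remaining 8 members lay between -0.62, with Folr2, and 0.44, with Cd163, and none passed the adjustment. Without KO and WT replicate 1, its r was 0.62 with Ms4a7, 0.51 with Cd209f, -0.34 with Folr2 and -0.54 with Stab1. Stab1 and Ms4a7, which each took part in a passing pair, had an r of -0.26 with each other (permutation p = 0.387, adjusted p = 0.529).

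**Figure D4:**
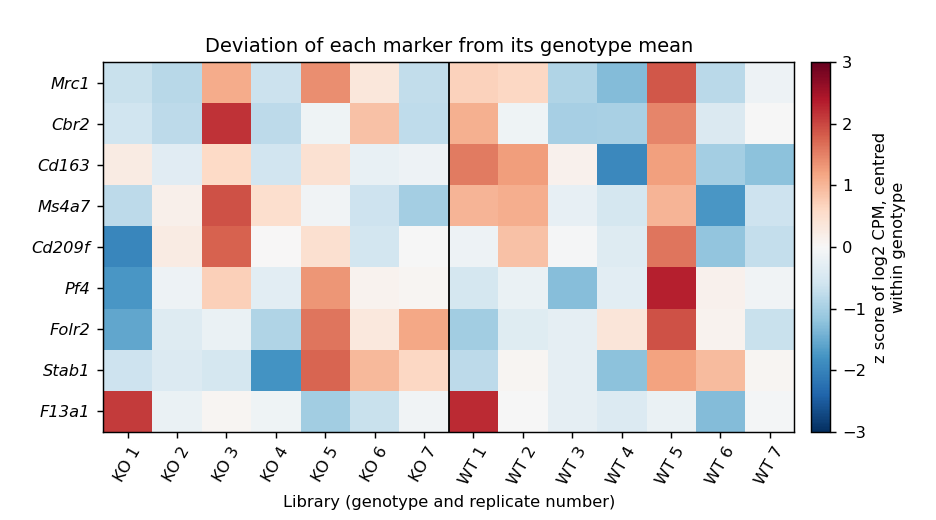
Deviation of each of 9 members from its genotype mean, as a z score of log2 CPM, in 14 libraries (KO left, WT right of the line; red above, blue below the mean). WT replicate 5 is above the mean for 8 of the 9, and F13a1 is far above it in both replicate 1 libraries.

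Averaged over the 9 members, the z score was highest in WT replicate 5 (1.38), KO replicate 3 (0.845) and KO replicate 5 (0.635), and lowest in WT replicate 4 (-0.748) and KO replicate 1 (-0.622). The z scores were centred within genotype, so each genotype had to have libraries above and below its mean. These averages therefore cannot compare KO with WT. The 5 other genes most like this average, of 12633 compared, were Itsn1 (r = 0.96), Ifi203, Ifi208, Mndal and Ccl12 (r = 0.95 each). For single members, the most alike were Hnrnpu and Pik3cd for Mrc1, Sema4c, Capn3 and Lpcat1 for Stab1, Pirb, Slfn2 and Actr3 for Ms4a7, Tpst1, Creb3l3 and Rassf5 for Pf4, Plod1, Eid1 and Zfp101 for Folr2, and Cd4, Akr1b8 and Atic for F13a1. Their r was between 0.91 and 0.97 over 14 libraries, given as a description with no test.

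Markers of other cells moved with some members. Of 90 relations between the 9 members and the summed levels of 10 cell type lists, 11 passed an adjusted permutation p of 0.05, 7 positive and 4 negative, but only 2 passed when Spearman's rho was used, and the p beside each rho below is unadjusted. Mrc1 was lower where the 9 astrocyte genes were high, with an r of -0.85 (permutation p = 0.00065, adjusted p = 0.0195), a rho of -0.86 (p = 0.00042) and an r of -0.75 without KO and WT replicate 5. With 9 mural and fibroblast genes, summed to 6.72–31.0 CPM in KO and 8.55–49.5 CPM in WT, the r of Mrc1 was -0.75 (permutation p = 0.00446, adjusted p = 0.0424), rho was -0.77 (p = 0.00381) and r without replicate 5 was -0.54. Pf4 had an r of -0.71 with the same list (permutation p = 0.00518, adjusted p = 0.0424), a rho of -0.70 (p = 0.00861) and an r of -0.58 without KO replicate 1 and WT replicate 5. The part of these other cells in the levels of the members was not tested. The KO minus WT differences of the members with the astrocyte level in the fit did not pass the threshold either, and of the 6 pairs only Pf4 with Folr2 passed (r = 0.90, adjusted permutation p = 0.00324) after the astrocyte level was removed. Among those that no longer passed, r was then 0.74 for Ms4a7 with Cd209f (adjusted permutation p = 0.0871), 0.71 for Stab1 with Folr2 (0.0908), and 0.61, 0.59 and 0.49 for Mrc1 with Cbr2, Cd163 and Pf4.

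**Figure D5:**
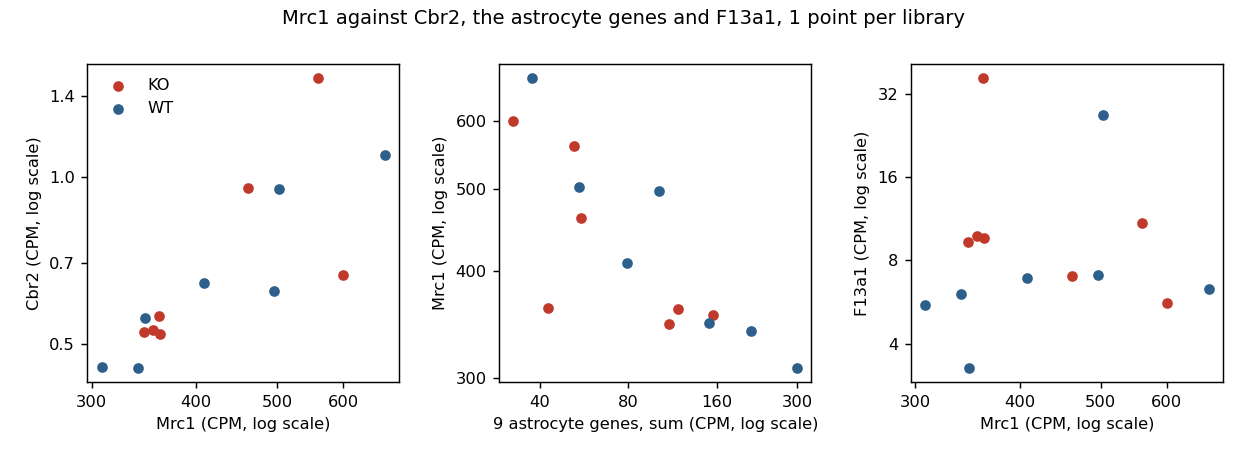
Mrc1 against Cbr2, the sum of 9 astrocyte genes against Mrc1, and Mrc1 against F13a1, in CPM on log axes, 1 point per library (KO red, WT blue). Cbr2 rises with Mrc1 (centred r = 0.81), Mrc1 falls as the astrocyte genes rise (centred r = -0.85), and Mrc1 with F13a1 has a centred r of 0.02, or 0.03 without both replicate 1 libraries.

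Macrophage lists rose with several members, and r is again given a further time without the 2 libraries farthest from the median of the member. The sum of 28 other border macrophage genes correlated with Mrc1 at an r of 0.84 (permutation p = 0.00052, adjusted p = 0.0195), a rho of 0.82 (p = 0.00073) and 0.66 without those libraries. For Pf4 and this list, r was 0.79 (permutation p = 0.00264, adjusted p = 0.0424), rho 0.61 (p = 0.028) and r without them 0.65. For Stab1, r was 0.75 (permutation p = 0.00293, adjusted p = 0.0424), rho 0.64 (p = 0.0208) and r without them 0.66.

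The sum of 10 pan-macrophage genes rose with Pf4 at an r of 0.84 (permutation p = 0.0006, adjusted p = 0.0195), a rho of 0.74 (p = 0.00456) and 0.58 without the farthest libraries. Cd209f had an r of 0.76 with this list (permutation p = 0.00445, adjusted p = 0.0424), a rho of 0.67 (p = 0.0113) and an r of 0.56 without them, and Mrc1 an r of 0.72 (permutation p = 0.00336, adjusted p = 0.0424), a rho of 0.67 (p = 0.0137) and 0.55. Stab1 also rose with the homeostatic microglia genes, at an r of 0.73 (permutation p = 0.00498, adjusted p = 0.0424), a rho of 0.79 (p = 0.00188) and 0.69. F13a1 was lower where they were higher, at an r of -0.83 (permutation p = 0.00205, adjusted p = 0.0424) and a rho of -0.59 (p = 0.0378). Without KO and WT replicate 1 this r was -0.42, a weaker relation of the same sign.

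The other border macrophage genes differed widely in level, with a median of 27.1 CPM per kilobase over the 28. The 3 with the highest CPM were Gas6, a ligand of TAM receptors, Cd36, a fatty acid and lipoprotein receptor, and Dab2, an endocytic adaptor. Per kilobase they stood at 560, 254 and 202 CPM. By contrast, Fcna (2.77), Vsig4 (2.2), Clec10a (0.495) and Timd4 (0.128 CPM per kilobase) were low, and 5 of the 28 had a mean count under 10. Of 23 tested, none passed the threshold. At an unadjusted p under 0.05, 2 were higher and 0 lower in KO by edgeR (over all 15700 tested genes, 274 higher and 255 lower, 3.37%), and DESeq2 had 0 past its adjusted and 2 past its unadjusted threshold (3.6% of all genes). These were Colec12, a scavenger receptor (232 ± 34 CPM in KO and 189 ± 19 in WT, log2 fold change 0.29 ± 0.09, edgeR adjusted p = 0.943), and Clec4n, a fungal lectin receptor also called Dectin-2 (14.5 ± 2.5 and 11.4 ± 2.8 CPM, 0.35 ± 0.14, edgeR adjusted p = 0.943). The list's median log2 fold change was 0.02.

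Relatives of the members were also measured. Of 34 paralogues, 19 were tested, none passed the threshold or an unadjusted p under 0.05 by edgeR, and DESeq2 had 0 and 2 (0.104% and 3.6% of all genes). The relatives of Cbr2 stood above it per length, Dcxr at 34.3, Cbr1 at 10.4, Cbr3 at 7.14 and Cbr4 at 1.74 CPM per kilobase. Of the other relatives, Stab2 stood at 1.37 CPM, Mrc2 at 1.02 and Folr1 at 0.864 CPM on average, Cd163l1 had 10 counts in all and F13b 1. Ms4a6d (114 CPM per kilobase) and Ms4a4a (62.1), neighbours of Ms4a7 in the Ms4a family, were higher per length than Ms4a7, and Cd44, a hyaluronan receptor like Lyve1, stood at 36.9 CPM per kilobase.

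Ligands and partners of the receptors summed to 625.1 ± 49 CPM in KO and 632 ± 47 CPM in WT. Of 16 genes, 12 were tested and none passed, with 1 higher and 0 lower at an unadjusted p under 0.05, against 3.37% of all genes (DESeq2 0 adjusted and 1 unadjusted, against 3.6%). Hmox1, which degrades the heme that Cd163 brings in, was the most abundant at 473 ± 29 CPM in KO and 459 ± 26 CPM in WT. Sparc, the Stab1 ligand, stood at 56.0 ± 17.8 CPM in KO and 69.3 ± 28.9 CPM in WT (log2 fold change -0.31 ± 0.27, edgeR adjusted p = 0.943). Hp, the haptoglobin of the Cd163 ligand, stood at 0.637 ± 0.584 and 0.328 ± 0.305 CPM. Il10, a cytokine known to raise Cd163, stood at 0.634 ± 0.560 CPM in KO and 0.279 ± 0.138 CPM in WT (log2 fold change 1.18 ± 0.47, edgeR adjusted p = 0.943). Of 12 alternative activation genes, with which Mrc1 is often grouped, 7 were tested and none passed, at 0 past an unadjusted p under 0.05 by edgeR and by DESeq2, and Il4ra was the most abundant at 121 ± 23 and 109 ± 15 CPM.

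The lists of other cells that could carry the markers were summed in the same way. In all, 9 platelet genes came to 5.76–6.79 CPM in KO and 4.74–6.86 CPM in WT, 8 monocyte genes to 8.98–15.5 and 7.91–14.4 CPM, 7 dendritic cell genes to 8.52–10.5 and 8.86–11.1 CPM, and 10 endothelial and lymphatic genes to 48.8–75.0 and 45.1–66.5 CPM, most of it Flt1 and Prox1. Within the lists, the genes differed: over all libraries together the endothelial Pecam1 had 2195 counts, Cdh5 885 and Emcn 34, the monocyte genes Ccr2 1685 and Ly6c2 52, and the dendritic cell genes Batf3 and Zbtb46 stood highest of their list, at 5.22 and 3.39 CPM in KO and 5.28 and 3.61 CPM in WT. Of 4, 5, 3 and 7 tested genes of the monocyte, dendritic cell, platelet and endothelial lists, none passed the threshold or an unadjusted p under 0.05, by edgeR or DESeq2. Over all tested genes, 0.0191% passed the threshold by edgeR and 0.104% by DESeq2. An unadjusted p under 0.05 was reached by 3.37% in edgeR and 3.6% in DESeq2. The astrocyte, neuron, and mural and fibroblast lists had no gene past the edgeR threshold either. All of their tested genes, 9, 7 and 7, had a negative log2 fold change, with medians of -0.69, -0.43 and -0.40. Over all tested genes, 50.8% had a positive log2 fold change and the median was 0.00. Genes of a list share the same libraries and can rise and fall together, so their signs are not separate observations. The astrocyte sums overlapped, at 32.1–156 CPM in KO and 37.5–302 CPM in WT. None of the 23 tested genes of the astrocyte, neuron, and mural and fibroblast lists reached an unadjusted p under 0.05 by edgeR, against 3.37%. DESeq2 had 1 at its unadjusted threshold, in the neuron list, against 3.6%.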

How the data were processed

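Poly(A) RNA of 14 cultures was sequenced as paired-end reads. Per the submitters' processing notes, Trimmomatic 0.36, STAR 2.5.2b, Subread 1.5.2 with featureCounts, and DESeq2 were used with GRCm38. The strand setting, annotation release and batch of each library are not given in the sources used here. The table the authors deposited holds whole-number counts for each Ensembl gene and library, not normalized. Genotype and replicate number came from the sample labels, and the study's methods describe each library as an isolation of its own. Names, positions and exon lengths came from GENCODE M21, which matched 48970 of 49315 genes.

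Genes were filtered (filterByExpr, minimum count 10, minimum total 15), scaled with TMM and tested, KO over WT, with edgeR 4.0.16 (R 4.3.3; quasi-likelihood, two-sided), with Benjamini-Hochberg adjustment over all 15700 tested genes and a threshold of 0.05. The design assumed a genotype term only, since the batch term of the study's methods could not be fitted. DESeq2 1.42.0, other scalings, no filter, covariates, a replicate block and leaving out libraries were alternatives. Single values used exact permutation of log2 CPM (prior count 1) over all 3432 splits. Correlations used 100000 permutations within genotype. CPM are counts scaled to a common library size with the TMM factors, in the sums of lists to the total counts, and CPM per kilobase divides them by exon length. Scripts were tested on simulated data.

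The members and lists were chosen with earlier results of these data known. The text names all 10 members and Timp2, for each companion list genes among the 3 smallest p or 3 highest levels, and the genes most like the members by correlation (5 for the average, 3 for each member with a mean count of at least 100). Some genes that this rule covers are not reported here. Other genes named for their level, such as Cd209 relatives and defining cell type genes, were chosen after their values were seen. Limits set from a count of 0 cover counting error only, while the 95% intervals of fold changes are from edgeR and include the spread between libraries.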

Additional observations from a re-analysis of the deposited data

Results flagged for a closer look

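In 24 groups of 7 libraries (KO and WT for the 10 members, their sum and Timp2), 6 values lay far from the rest of their genotype by Dixon's test, in which chance marks about 1 in 20 groups. F13a1 stood at 36.4 CPM in KO replicate 1 and at 26.7 CPM in WT replicate 1, with gaps of 0.828 and 0.839 of the whole range. Pf4 stood at 30.1 CPM and Folr2 at 45.2 CPM in WT replicate 5, with gaps of 0.691 and 0.585. Cd209f stood at 1.96 CPM in KO replicate 3, with a gap of 0.62. Timp2 stood at 129 CPM in KO replicate 4, above the other KO libraries and below every WT library.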

How the results depend on the processing

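Over 24 alternatives, Timp2 stayed lower in KO (log2 fold change -1.95 to -1.88). The count of all genes called was 3, but 4 with the homeostatic microglia covariate or without KO replicate 4, 15 with DESeq2 and 26 with DESeq2 and the replicate block. No member was called except 1, F13a1, under DESeq2 with the replicate block (log2 fold change 0.56, DESeq2 adjusted p = 0.0452), a fit that called 0.166% of all genes and where 1 companion gene, the neuronal Snap25, was called as well. With the block in edgeR, F13a1 had a log2 fold change of 0.56 (edgeR adjusted p = 0.611) and was higher in KO in 6 of 7 same-numbered pairs. The numbers did not pair the libraries by the criterion used: same-numbered KO and WT libraries had correlations of -0.196 to 0.743, over 0.1 in 3 of 7, and 3 of 14 libraries correlated best with their own number. The number of members with a positive fold change ranged from 4 to 8. Signs changed for Mrc1 (-0.109 to 0.12 when single libraries were left out, 0.058 without both replicate 1 libraries, and -0.196 with the astrocyte level as a covariate), Stab1 (-0.075 to 0.032), F13a1 (-0.023 to 1.117), Cbr2 (-0.125 to 0.292, 0.294 without both replicate 1 libraries and -0.072 with the astrocyte level as a covariate), Ms4a7 (-0.002 to 0.188, and 0.226 without both replicate 1 libraries) and Pf4 (-0.032 with the astrocyte covariate), and the cause was not tested. Adjusted p of the 9 members was between 0.611 and 0.9998 in all other fits. The log2 difference of the summed level was 0.27 when the median member replaced the sum.

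The 6 passing pairs became 11 without centring, 17 with centring on the replicate number as well (the block), 1 after the astrocyte level was removed (with r of 0.49 to 0.90 for the 6), 3 among members with a mean count of at least 100 (an alternative added after seeing the data, as were those without replicate 1), and 0 in WT or KO libraries alone, where 7 libraries were left. They were 4 by Spearman's rho and 9 with a prior count of 5. When single libraries were left out they were 2 to 12. They were 2 without KO replicate 3, KO replicate 5 or WT replicate 5, and 12 without KO replicate 4. The 11 relations with cell type lists became 2 by Spearman's rho and 19 with the replicate centring. With 1 KO and 1 WT library per number, that centring makes their values mirror each other, so the 14 points hold 7 values. The permutation treated them as 14, so the counts of 17 and 19 cannot be compared with the others. That centring also moved single values: the r of F13a1 became 0.66 with Mrc1, 0.74 with Cbr2 and 0.75 with Ms4a7, that of Pf4 with Folr2 fell to 0.23, and those of Stab1 with the homeostatic and the other border macrophage genes and of F13a1 with the homeostatic genes became -0.07, 0.19 and 0.04. With 250 bases before the start only, GAGGAA was present for 5 members and TGCTGA for 2. Counts limit Lyve1, at 0 to 5 per library.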
